A study of Mus musculus with 18 samples.

Results

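Transcripts of the proteasome genes were followed in C2C12, an established mouse line of dividing myoblasts that fuse into multinucleated myotubes when serum is withdrawn. The genes were taken by symbol: every protein-coding gene whose symbol begins with Psma, Psmb, Psmc, Psmd, Psme, Psmf or Psmg followed by a digit, 50 of the 21702 protein-coding genes in the deposited tables. The rule uses no measured value, but it was chosen with earlier results of these data known. The symbol rule also takes Psmc3ip, a cofactor of meiotic recombination that binds Psmc3 and is not a proteasome subunit. It has no place in the classes of subunits below, but it is 1 of the 46 tested genes in every count and median over all of them.

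The 6 groups were myotubes with Setd2 siRNA 1, myotubes with Setd2 siRNA 2, myotubes with control siRNA, myoblasts with Setd2 siRNA 1, myoblasts with Setd2 siRNA 2 and myoblasts with control siRNA. Setd2 encodes the enzyme that trimethylates histone tails along transcribed genes. Each group held 3 libraries of polyA RNA labelled as biological replicates, 18 in all. All cells had been stretched just before RNA was taken, so stretching is common to every group. All groups come from 1 established cell line, and nothing in the labels says whether the replicates were separate cultures, so the p-values measure the spread between these libraries.

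The proteasome is the barrel-shaped protease that degrades proteins tagged with ubiquitin. Its core particle stacks rings of alpha subunits, which form the gate, on rings of beta subunits, of which Psmb5, Psmb6 and Psmb7 carry the catalytic sites. The cap, or regulatory particle, has a base with ATPase subunits that unfold the substrate and a lid that removes ubiquitin. Other activators can dock on the core in place of the cap, dedicated chaperones assemble both particles, and cells exposed to interferon replace the catalytic subunits with the inducible Psmb8, Psmb9 and Psmb10. In muscle the system is known for protein breakdown during atrophy, for which the ubiquitin ligases Trim63 and Fbxo32 are the usual markers.

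Of the 50 genes, 46 had enough counts to be tested in every comparison and 4 did not. Psma8, the alpha subunit of testis, had 0 estimated counts in all 18 libraries. The inducible subunit Psmb8 had 0 to 11 estimated counts per library, the inducible subunit Psmb9 had 0 to 6, and the thymus subunit Psmb11 had 0 to 5. These levels lie at the limit of detection, since libraries held 43.5 to 66.6 megareads, and no comparison between groups was made for them.

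Setd2 itself, the check of the depletion, stood at 34.4 to 58.8 CPM (TMM-scaled counts per megaread) in the 6 depleted myotube libraries, against 101 to 108 CPM in control myotubes, and at 34.4 to 45.0 CPM in the 6 depleted myoblast libraries, against 97.7 to 118 CPM in control myoblasts. The 8 myotube marker genes summed to 19674 to 22924 CPM in control myotubes, against 173 to 213 CPM in control myoblasts. Summed markers of macrophages, endothelial cells and adipocytes reached at most 2.21, 2.67 and 0.130 CPM in any library. The 6 fibroblast markers were abundant as a sum, at 1026 to 1589 CPM in myotube libraries and 1035 to 1802 CPM in myoblast libraries. Only 4 of them, Col1a1, Col3a1, Dcn and Pdgfra, had enough counts to be tested. The sum of the 5 myoblast markers did not mark that stage, at 3882 to 4215 CPM in control myotubes, against 1182 to 1372 CPM in control myoblasts. Singly, Pax7 and Myf5 were lower in control myotubes (log2 fold changes -0.49 and -0.28). Des, Myod1 and Cdh15 were higher (2.01, 0.93 and 0.68). Genes of ribosomal RNA-like sequence took 1.27% to 2.99% of the counts in myotubes and 1.2% to 4.09% in myoblasts, and in myoblasts their share was higher in every depleted library (1.45% and above) than in every control library (1.36% and below). Their part in the results below was not tested.

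Levels of the 31 structural subunits of core and cap were compared as TPM (a share of the library's transcripts, corrected for length, so that genes can be compared with each other). In control myotubes their means ran from 111 TPM for the alpha subunit Psma1 to 664 TPM for the base ATPase Psmc3. In control myoblasts they ran from 152 TPM for the lid subunit Psmd13 to 462 TPM for the alpha subunit Psma7. Summed over the 31 genes, control myotubes held 7526 ± 71.4 TPM and control myoblasts 7975 ± 129 TPM (SD, n = 3 each), which is 0.753% and 0.797% of all TPM. In the plot of subunit levels the highest was thus Psmc3 in myotubes and Psma7 in myoblasts.

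**Figure D1:**
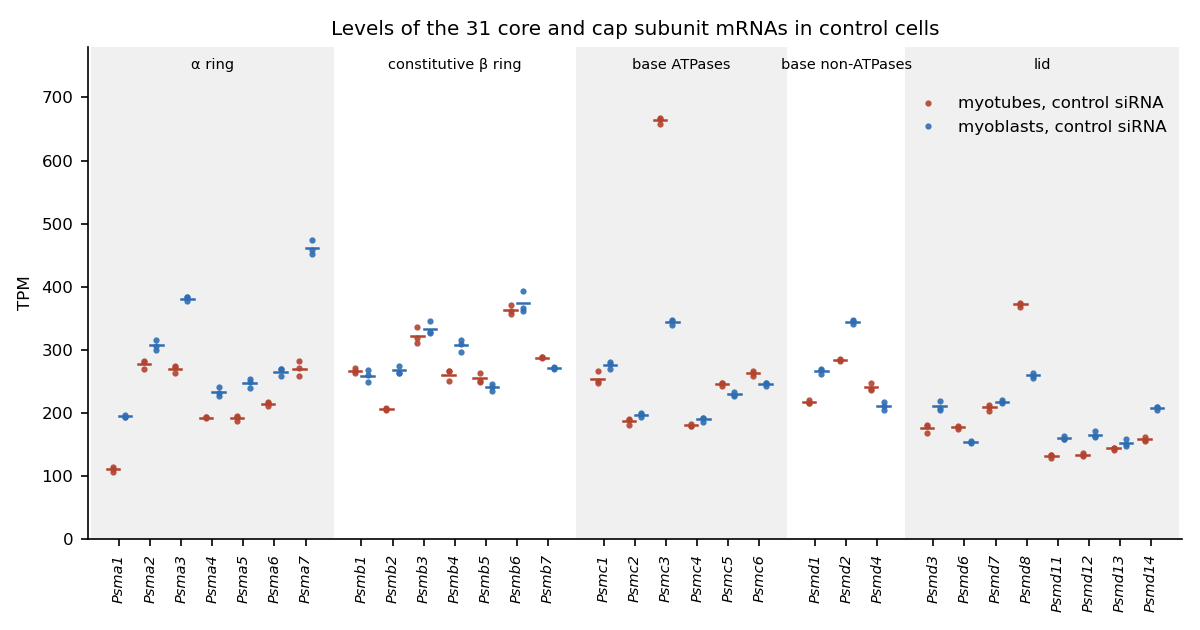
Level of each of the 31 structural core and cap subunits in TPM (y axis) in control myotubes and control myoblasts. Each point is 1 library and each bar the mean of 3. Psmc3 stands at 664 TPM in myotubes against 344 TPM in myoblasts, and all 7 alpha ring subunits are lower in myotubes.

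The activators and the inducible subunits stood mostly below the structural ones. The activator Psme3, a nuclear partner of the core that works without ATP, had 105 ± 1.82 TPM in control myotubes and 167 ± 4.63 TPM in control myoblasts. Psme4, the large single-chain activator, had 95.3 ± 2.52 TPM in control myotubes and 49.9 ± 1.23 TPM in control myoblasts. The interferon-inducible activator pair Psme1 and Psme2 had 36.6 ± 0.617 and 84.3 ± 3.48 TPM in control myotubes, against 46.7 ± 2.93 and 71.6 ± 9.86 TPM in control myoblasts. Psme2 and Psme2b are near-identical copies that can share reads, and their separate values are uncertain. The only inducible catalytic subunit above the detection limit, Psmb10, had 11.6 ± 0.169 TPM in control myotubes and 8.46 ± 0.433 TPM in control myoblasts, far under the 287 ± 0.337 and 271 ± 1.04 TPM of Psmb7, the constitutive subunit whose place it takes.

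Not all of this RNA was assigned to coding transcripts. In control myotubes and control myoblasts the transcripts annotated as protein-coding held 33.4% and 32.9% of the TPM of Psma3, where the leading transcript is a retained intron, and 50.7% and 49.5% of the TPM of Psmd13. For Psmc3 they held 92.6% and 92.0%, and the coding transcript Psmc3-202 alone held 80.6% and 76.3%.

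Differentiation was examined first, as control myotubes against control myoblasts. The alpha ring fell as a group while most of the constitutive beta ring did not change past the threshold, and single members of the cap, the chaperones and the activators moved in opposite directions. With edgeR's quasi-likelihood test and Benjamini-Hochberg adjustment over all genes, at an adjusted p under 0.05, 9 of the 46 proteasome genes rose and 27 fell, Psmc3ip among them. Of all 16930 genes tested, 39.4% rose and 38.1% fell, so the share of proteasome genes called either way, 78.3%, was near the 77.5% over all genes, and the share that fell lay above the background. The median log2 fold change was -0.15 over the proteasome genes and 0.00 over all genes.

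All 7 alpha ring genes fell in control myotubes, with log2 fold changes from -0.83 to -0.16 and a median of -0.39. Their summed level was 1528 ± 34.1 TPM in control myotubes and 2091 ± 33.5 TPM in control myoblasts. Psma1, on chromosome 7, had 58.3, 61.8 and 62.3 CPM in control myotubes, against 109.6, 108 and 107 CPM in control myoblasts (log2 fold change -0.83, SE 0.04, adjusted p = 9.55e-14). Psma7, on chromosome 2, had 101, 107 and 108 CPM in control myotubes, against 189, 181 and 181 CPM in control myoblasts (log2 fold change -0.80, SE 0.03, adjusted p = 1.98e-14). For both genes every myotube library lay under every myoblast library.

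Promoter windows of the 2 alpha ring genes that fell furthest and of the activator Psme4, which rose, are printed here to show what the letters around their start sites hold. They are RefSeq windows of build GRCm38.p6, from 250 bases before to 50 bases after the annotated start, on the strand of the gene. Capitals mark a CCAAT box (the letters CCAAT, or ATTGG on the other strand), the motif bound by the factor NF-Y, and the core of the antioxidant response element (TGACNNNGC on either strand), the motif bound by Nfe2l1 and Nfe2l2 with small Maf proteins. The windows are chr7:114276067-114276366 (minus strand) for Psma1, chr2:180042415-180042714 (minus strand) for Psma7 and chr11:30771525-30771824 (plus strand) for Psme4.
Psma1: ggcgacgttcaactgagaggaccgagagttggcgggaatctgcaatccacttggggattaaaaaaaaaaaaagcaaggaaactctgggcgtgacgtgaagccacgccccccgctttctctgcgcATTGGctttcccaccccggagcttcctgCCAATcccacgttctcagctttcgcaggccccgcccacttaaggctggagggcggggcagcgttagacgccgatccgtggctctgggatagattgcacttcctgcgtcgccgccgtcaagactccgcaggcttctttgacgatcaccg
Psma7: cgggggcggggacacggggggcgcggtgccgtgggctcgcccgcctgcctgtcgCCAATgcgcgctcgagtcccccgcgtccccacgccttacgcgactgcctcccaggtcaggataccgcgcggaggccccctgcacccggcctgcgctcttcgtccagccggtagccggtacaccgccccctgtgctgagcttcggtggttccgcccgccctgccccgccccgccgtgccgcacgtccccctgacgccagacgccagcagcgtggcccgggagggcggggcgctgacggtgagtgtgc
Psme4: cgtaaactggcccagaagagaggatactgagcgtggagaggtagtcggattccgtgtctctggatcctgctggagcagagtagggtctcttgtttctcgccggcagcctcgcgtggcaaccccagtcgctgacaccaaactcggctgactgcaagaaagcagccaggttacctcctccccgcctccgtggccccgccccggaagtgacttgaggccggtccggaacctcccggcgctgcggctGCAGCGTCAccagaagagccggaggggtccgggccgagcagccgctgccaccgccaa

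The CCAAT letters were found in the windows of 15 of the 42 proteasome genes that have a window in the RefSeq table, 35.7%, against 41.1% of 27025 genes with a window. Within the alpha ring 5 of 7 windows held them, in the constitutive beta ring 1 of 4 and among the ATPases 2 of 5. The other base subunits had 1 of 3, the lid 1 of 6 and the activators 1 of 5. For the core and base assembly chaperones it was 0 of 3 and 1 of 3. Whether the classes differ in this was not tested. The antioxidant response core was in 6 of the 42, 14.3%, against 14% of all genes, and those 6 were Psmb5, Psmb6, Psmc6, Psmd9, Psmd12 and Psme4. The core of the interferon-stimulated response element, searched on both strands, was in 5 of the 42, 11.9%, against 3.99% of all genes, and those were Psmb3, Psmd4, Psmd9, Psme1 and Psmg4. The genes Psma8, Psmb1, Psmb2, Psmb7, Psmc3, Psmd3, Psmd7 and Psmg2 were not matched to a window.

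In the constitutive beta ring 2 of 7 genes fell and 0 rose. The genes that fell were Psmb2, with a log2 fold change of -0.39, and Psmb4, with -0.25. The 3 catalytic subunits did not pass the test. Psmb5, the chymotrypsin-like subunit, had 93.8, 95.0 and 97.5 CPM in control myotubes, against 93.4, 89.1 and 90.8 CPM in control myoblasts. Psmb6, the caspase-like subunit, had 119, 123 and 116 CPM in control myotubes, against 131, 121 and 119 CPM in control myoblasts. Psmb7, the trypsin-like subunit, had 154, 155 and 152 CPM in control myotubes, against 147, 147 and 146 CPM in control myoblasts. Only the Psmb6 values overlapped between the stages, and the log2 differences of the 3 genes were 0.07, -0.05 and 0.07. The summed beta ring was at 1961 ± 25.0 TPM in control myotubes and 2053 ± 57.5 TPM in control myoblasts. Psmb10 rose, from the low level given above: it had 6.82, 6.81 and 6.86 CPM in control myotubes, against 5.24, 4.77 and 5.17 CPM in control myoblasts, a log2 fold change of 0.43 (SE 0.09, adjusted p = 0.000129 by edgeR).

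In the cap, Psmc3, an ATPase of the base, had 471, 472 and 456 CPM in control myotubes, against 242, 235 and 239.7 CPM in control myoblasts. The myotube libraries were higher by 1.95-fold (log2 fold change 0.97, SE 0.04, adjusted p = 7.71e-15). The other 5 ATPases ranged from -0.13 to 0.08, of which Psmc5 rose and Psmc1, Psmc2 and Psmc4 fell. Psmc5, with an adjusted p of 0.0480, lost the call under 8 of the alternatives, among them each omission of a control library. The falls of Psmc4, Psmc2 and Psmc1 were lost in 6, 5 and 2 of 12 alternatives. Psmc3 shares 215 exonic bases with Slc39a13 on the opposite strand, and without strand information the reads of that stretch cannot be told apart. Slc39a13 averaged 56.0 TPM.

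The rest of the cap was lower on the whole. Of the 3 base subunits without ATPase activity, the scaffolds Psmd1 and Psmd2 fell (-0.32 and -0.30) and the ubiquitin receptor Psmd4 rose (0.17). Of the 8 lid genes, 6 fell and 2 rose, but the fall of Psmd13 was lost in 11 of 12 alternatives and that of Psmd7 in 7. Psmd14, the deubiquitinase of the lid, had the largest fall at -0.39. The risers were Psmd6 (0.18) and Psmd8, which had 236, 242 and 237 CPM in control myotubes, against 171, 167 and 167 CPM in control myoblasts (log2 fold change 0.50, SE 0.04, adjusted p = 3.98e-10).

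Among the chaperones, Psmg1, which builds the alpha ring together with Psmg2, had 11.4, 11.3 and 11.2 CPM in control myotubes, against 19.8, 20.0 and 20.4 CPM in control myoblasts (log2 fold change -0.83, SE 0.05, adjusted p = 8.01e-12). Psmg4 fell as well (-0.34), and Psmg2 and Psmg3 did not pass (-0.09 and -0.12). Of the chaperones of the base, Psmd5 fell (-0.79), Psmd10 rose (0.46) and Psmd9 did not pass (0.03).

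The activators split. Psme4 had 309, 303 and 298 CPM in control myotubes, against 156, 161 and 162 CPM in control myoblasts (log2 fold change 0.92, SE 0.04, adjusted p = 6.38e-15). Psme3 had 110.1, 112 and 110.2 CPM in control myotubes, against 176, 182 and 180.4 CPM in control myoblasts (log2 fold change -0.70, SE 0.03, adjusted p = 8.98e-14). The myotube libraries lay entirely above the myoblast libraries for Psme4 and entirely below them for Psme3. Psme1 had 18.0, 18.5 and 17.7 CPM in control myotubes, against 25.3, 22.4 and 22.1 CPM in control myoblasts, and fell (-0.36). Psme2 had 27.9, 29.5 and 30.5 CPM in control myotubes, against 26.4, 25.1 and 23.6 CPM in control myoblasts, and rose (0.23). Psmf1, an inhibitor of the core in the test tube, had 28.4, 29.2 and 27.5 CPM in control myotubes, against 34.0, 33.1 and 34.2 CPM in control myoblasts, and fell (-0.25). Psmc3ip, the gene that is not a subunit, had 3.82, 3.80 and 3.73 CPM in control myotubes, against 8.35, 8.34 and 7.96 CPM in control myoblasts (log2 fold change -1.12, SE 0.08, adjusted p = 3.55e-11). Its protein-coding transcripts held 52.6% of its TPM in control myotubes and 32.3% in control myoblasts, and counted alone they gave -0.50 (adjusted p = 0.00418). It also shares 385 exonic bases with Mlx on the opposite strand, which averaged 45.8 TPM.

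**Figure D2:**
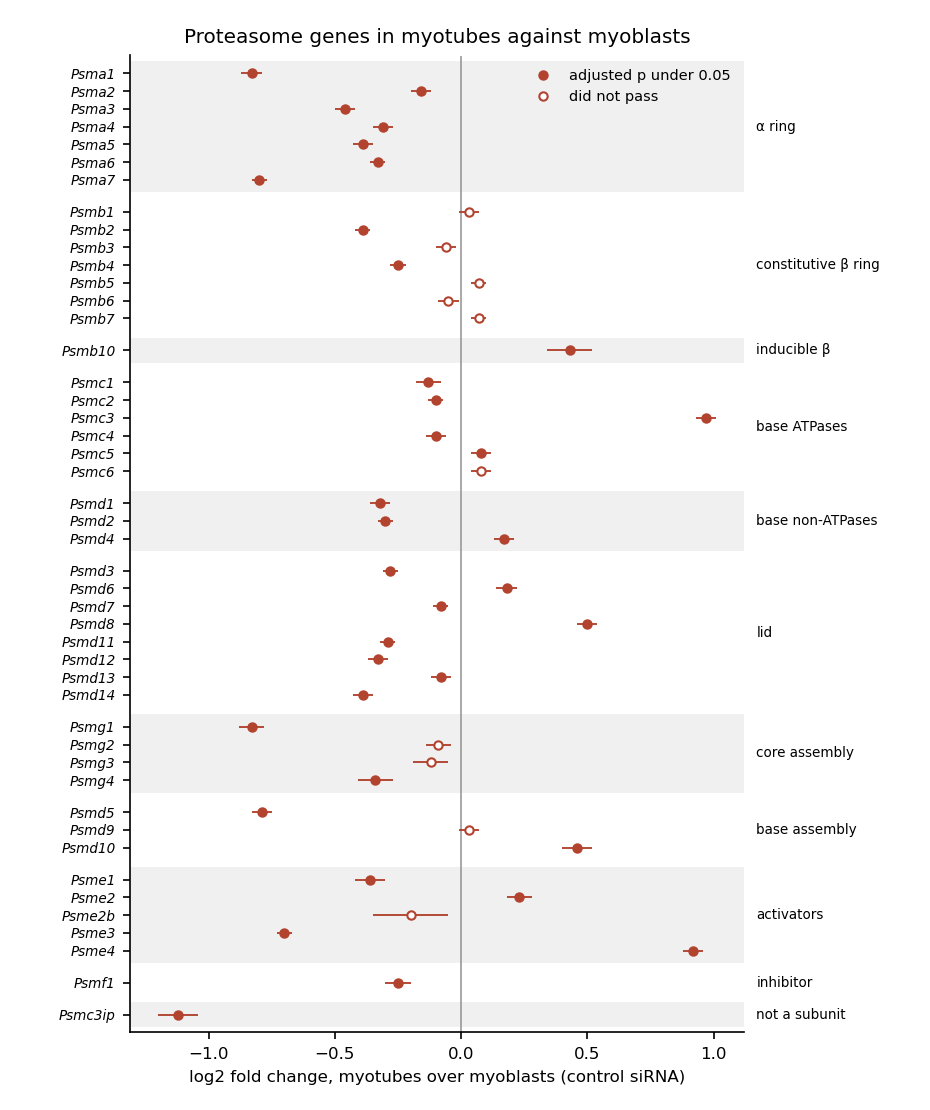
Log2 fold change of control myotubes over control myoblasts (x axis) for the 46 tested proteasome genes, grouped by role. Points are estimates from 3 libraries per group and bars are standard errors, filled where the adjusted p was under 0.05. All 7 alpha ring genes lie left of 0, while Psmc3 at 0.97 and Psme4 at 0.92 stand farthest to the right.

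Genes that work with the proteasome were counted beside it, in a comparison where 77.5% of all genes were called, 39.4% rising and 38.1% falling. Of 18 partners without a Psm symbol 6 rose and 8 fell, which is near that background. Of 13 genes of ubiquitin and its activation 2 rose and 7 fell. Neither list was tested against the background. Uchl5 and Usp14, the deubiquitinases that dock on the cap, had log2 fold changes of -1.25 and -0.65, and the assembly factor Pomp had 0.17. Of 14 muscle ubiquitin ligases 12 rose and 2 fell, where 39.4% of all genes rose and 38.1% fell. Trim63 had 58.8 ± 1.32 CPM in control myotubes and 0.129 ± 0.161 CPM in control myoblasts, and Fbxo32 had 100.2 ± 2.13 CPM in control myotubes and 17.2 ± 1.53 CPM in control myoblasts. Nfe2l1, the transcription factor that raises proteasome genes when proteasome activity falls short, had 959 ± 40.7 CPM in control myotubes and 290.2 ± 7.96 CPM in control myoblasts (log2 fold change 1.72). All 3 NF-Y subunits, Nfya, Nfyb and Nfyc, fell (-0.80, -1.22 and -0.49). Nfe2l1 and the NF-Y genes are from a list of 18 regulators of proteasome genes, of which 7 rose and 9 fell. The part of these regulators in the changes was not tested.

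The same step with either Setd2 siRNA gave 13 rises and 23 falls with siRNA 1, where 78.4% of all genes were called, 39.7% rising and 38.8% falling, and 20 rises and 18 falls with siRNA 2, where 78.1% were called, 40.3% rising and 37.8% falling. The medians over the proteasome genes were -0.14 with siRNA 1 and 0.03 with siRNA 2, against 0.01 over all genes with each. The alpha ring gave 7 falls with siRNA 1 and 6 with siRNA 2, where Psma2 did not pass. Stage, deposited table and library prefix change together in all 3 of these comparisons and cannot be told apart, nor can fewer cells of a type and less RNA per cell.

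Depletion of Setd2 was then tested in each stage against the control siRNA, with each siRNA apart. In myotubes Psmb10 rose by 1.6-fold with siRNA 1 and 1.5-fold with siRNA 2, and Psmc3 by 1.24-fold and 1.22-fold. In myoblasts Psme4 rose by 1.36-fold and 1.42-fold and Psme3 fell with each. The comparisons of the 2 siRNAs within a stage share their control libraries, so a control library that stands apart would move both.

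In myotubes with siRNA 1, 4 of the 46 proteasome genes rose and 1 fell, 10.9% called, against 20.5% over 16097 genes, of which 11.0% rose and 9.57% fell. With siRNA 2, 18 rose and 4 fell, 47.8% called, against 32.2% over all genes, of which 15.8% rose and 16.4% fell. The medians were 0.01 and 0.07 over the proteasome genes and -0.00 and -0.01 over all genes. On TPM with limma, without TMM scaling, siRNA 1 gave 3 rises and 6 falls and siRNA 2 gave 6 rises and 8 falls, so the balance of direction with siRNA 2 depends on the scale. On that scale the median over all genes was -0.09 with siRNA 2 and that over the proteasome genes -0.02. Summed over the 31 structural subunits, myotubes held 7484 ± 68.5 TPM with siRNA 1, 7586 ± 159.7 TPM with siRNA 2 and 7526 ± 71.4 TPM with control siRNA, and the ranges of these groups overlapped.

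Called the same way with each siRNA in myotubes were 3 rises, Psmb10, Psmc3 and Psmd13, and 1 fall, Psme3, where 13.4% of all genes were so called, 7.14% rising and 6.27% falling. On TPM the split was 2 and 2. Of the members 0 were called in opposite ways with the siRNAs in either stage, against 0.509% of all genes in myotubes and 1.04% in myoblasts. Psmb10 had 10.5, 10.9 and 11.3 CPM in siRNA 1 myotubes and 10.7, 10.3 and 9.88 CPM in siRNA 2 myotubes, against 6.82, 6.81 and 6.86 CPM in control myotubes. The log2 fold change was 0.68 with siRNA 1 (SE 0.06, adjusted p = 3.59e-05) and 0.59 with siRNA 2 (SE 0.06, adjusted p = 3.30e-05). All 6 depleted libraries lay above all 3 controls, and within the library prefixes C13 and D1 the log2 differences were 0.58 and 0.67 with siRNA 1 and 0.61 and 0.53 with siRNA 2. The call was kept under every alternative tried. It rests on 499 to 620.0 estimated counts per depleted library, against 293 to 446 per control library.

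Psmc3 had 552, 587 and 585 CPM in siRNA 1 myotubes and 532, 598 and 578 CPM in siRNA 2 myotubes, against 471, 472 and 456 CPM in control myotubes. The log2 fold change was 0.31 with siRNA 1 (SE 0.04, adjusted p = 0.000485) and 0.29 with siRNA 2 (SE 0.04, adjusted p = 0.000352), with no overlap between depleted and control libraries. In myoblasts Psmc3 had 252, 251 and 259 CPM with siRNA 1 and 255, 247 and 244 CPM with siRNA 2, against 242, 235 and 239.7 CPM with control siRNA. It rose there past the threshold with siRNA 1 alone, a call lost in 8 of 18 alternatives. Psmd13, a lid subunit, had 105, 113 and 112 CPM in siRNA 1 myotubes and 109, 121 and 115 CPM in siRNA 2 myotubes, against 101, 101 and 99.5 CPM in control myotubes, with log2 fold changes of 0.14 and 0.19. Psme3 had 105, 99.9 and 101 CPM in siRNA 1 myotubes and 98.3, 97.8 and 96.0 CPM in siRNA 2 myotubes, against 110.1, 112 and 110.2 CPM in control myotubes, with log2 fold changes of -0.11 and -0.19. The siRNA 1 calls of Psmd13 (adjusted p = 0.0243) and Psme3 (adjusted p = 0.0320) by edgeR were lost in 7 and 10 of 18 alternatives. Among these was each omission of a control library. Psmd8, also of the lid, rose past the threshold with siRNA 1 alone in myotubes, a call kept in all 18 alternatives. It had 259.7, 293 and 285 CPM with siRNA 1 and 239, 260.0 and 255 CPM with siRNA 2, against 236, 242 and 237 CPM with control siRNA.

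Several members moved with siRNA 2 alone past the threshold in myotubes. Psmd2, the base subunit on which ubiquitin receptors dock, had 389, 393 and 399.9 CPM in siRNA 1 myotubes and 322, 325 and 322 CPM in siRNA 2 myotubes, against 418, 424 and 411 CPM in control myotubes (log2 fold changes -0.08 and -0.37). Psmg3, a chaperone of the alpha ring, had 14.8, 13.3 and 12.5 CPM in siRNA 1 myotubes and 9.12, 7.61 and 8.77 CPM in siRNA 2 myotubes, against 13, 13.1 and 12.8 CPM in control myotubes (log2 fold changes 0.07 and -0.61). For both genes all siRNA 2 libraries lay under all others of the stage. Set against siRNA 1 directly, siRNA 2 myotubes were lower by log2 differences of -0.29 for Psmd2 (SE 0.03, adjusted p = 8.58e-05) and -0.68 for Psmg3 (SE 0.08, adjusted p = 0.000212).

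By class, siRNA 2 in myotubes gave 3 rises of 7 in the alpha ring, 4 of 7 in the beta ring, 3 of 6 among the ATPases and 4 of 8 in the lid, with 0 falls in these 4 classes, where 15.8% of all genes rose. The rise of Psma3 turned to -0.03 when only protein-coding transcripts were counted, and the calls of Psma3, Psma1 and Psmd12 were lost in 7, 6 and 6 of 18 alternatives. Those of Psmb1, Psmc4 and Psmd11 were lost in 5, 5 and 4, and those of Psmc1, Psma7, Psmb7 and Psmd6 in 1 or 2. The median log2 fold change over the 31 structural subunits was 0.11, and 15 of them rose by up to 0.29 while Psmd2 fell. Against siRNA 1, 11 proteasome genes were higher and 5 lower with siRNA 2 in myotubes, where 17.1% of all genes differed, 7.76% higher and 9.36% lower. On TPM the split was 5 and 5. Psmb7 rose with siRNA 2 (0.18) and had 158, 163 and 165 CPM in siRNA 1 myotubes and 165, 178 and 179.7 CPM in siRNA 2 myotubes, against 154, 155 and 152 CPM in control myotubes. Psmb5 had 94.0 to 98.0 CPM in siRNA 1 myotubes and 93.5 to 97.8 CPM in siRNA 2 myotubes, against 93.8 to 97.5 CPM in control myotubes. The Psmb6 ranges, 117 to 127, 121 to 126 and 116 to 123 CPM in the same order, overlapped too.

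Among the activators in myotubes, Psme4 had 311, 326 and 345 CPM in siRNA 1 myotubes and 367, 374 and 372 CPM in siRNA 2 myotubes, against 309, 303 and 298 CPM in control myotubes. It rose with siRNA 2 (0.29, SE 0.04, adjusted p = 0.000145) and missed the threshold with siRNA 1 (0.11, SE 0.04, adjusted p = 0.0535). Psme1 had 19.7, 19.5 and 19.6 CPM in siRNA 1 myotubes and 19.1, 17.9 and 18.0 CPM in siRNA 2 myotubes, against 18.0, 18.5 and 17.7 CPM in control myotubes, and passed with neither. Psme2 ranged from 30.0 to 32.5 CPM in siRNA 1 myotubes and 28.6 to 30.5 CPM in siRNA 2 myotubes, against 27.9 to 30.5 CPM in control myotubes, and passed with neither. Psmf1 had 28.2, 28.2 and 27.9 CPM in siRNA 1 myotubes and 23.9, 26.1 and 24.5 CPM in siRNA 2 myotubes, against 28.4, 29.2 and 27.5 CPM in control myotubes, and fell with siRNA 2 (-0.19).

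Psmb10 belongs with Psmb8 and Psmb9 to the interferon-induced subunits, and the other genes of interferon response and antigen presentation were read beside it. In myotubes 4 of the 17 tested rose with siRNA 1, where 11.0% of all genes rose, and 0 fell, namely B2m, H2-D1, Erap1 and Irf1 with log2 fold changes of 0.18 to 0.23. With siRNA 2, 0 rose and 1 fell, Tapbp at -0.21. The median log2 fold change of the 17 was 0.18 with siRNA 1 and 0.04 with siRNA 2. Of 18 partners of the proteasome, 2 rose and 2 fell with siRNA 1, and 8 rose and 1 fell with siRNA 2, where 20.5% and 32.2% of all genes were called. The partners called with siRNA 1 are near that background. Pomp, which builds the core, rose with each, at 99.0 ± 4.37 CPM in siRNA 1 myotubes and 105 ± 1.95 CPM in siRNA 2 myotubes, against 90.6 ± 2.92 CPM in control myotubes. Nfe2l1 rose with each as well (0.15 and 0.24). Of the 18 listed regulators of proteasome genes 2 rose and 1 fell with siRNA 1. With siRNA 2, 7 of them rose and 3 fell, against the same shares of all genes. Of 14 muscle ligases 5 rose and 0 fell with siRNA 1, and 7 rose and 1 fell with siRNA 2; Trim63 had 74.6 ± 2.94 CPM in siRNA 1 myotubes and 79.6 ± 2.78 CPM in siRNA 2 myotubes, against 58.8 ± 1.32 CPM in control myotubes. The summed myotube markers were 22387 to 27446 CPM with siRNA 1 and 23935 to 25437 CPM with siRNA 2, against 19674 to 22924 CPM with control siRNA, and their part in these changes was not tested.

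**Figure D3:**
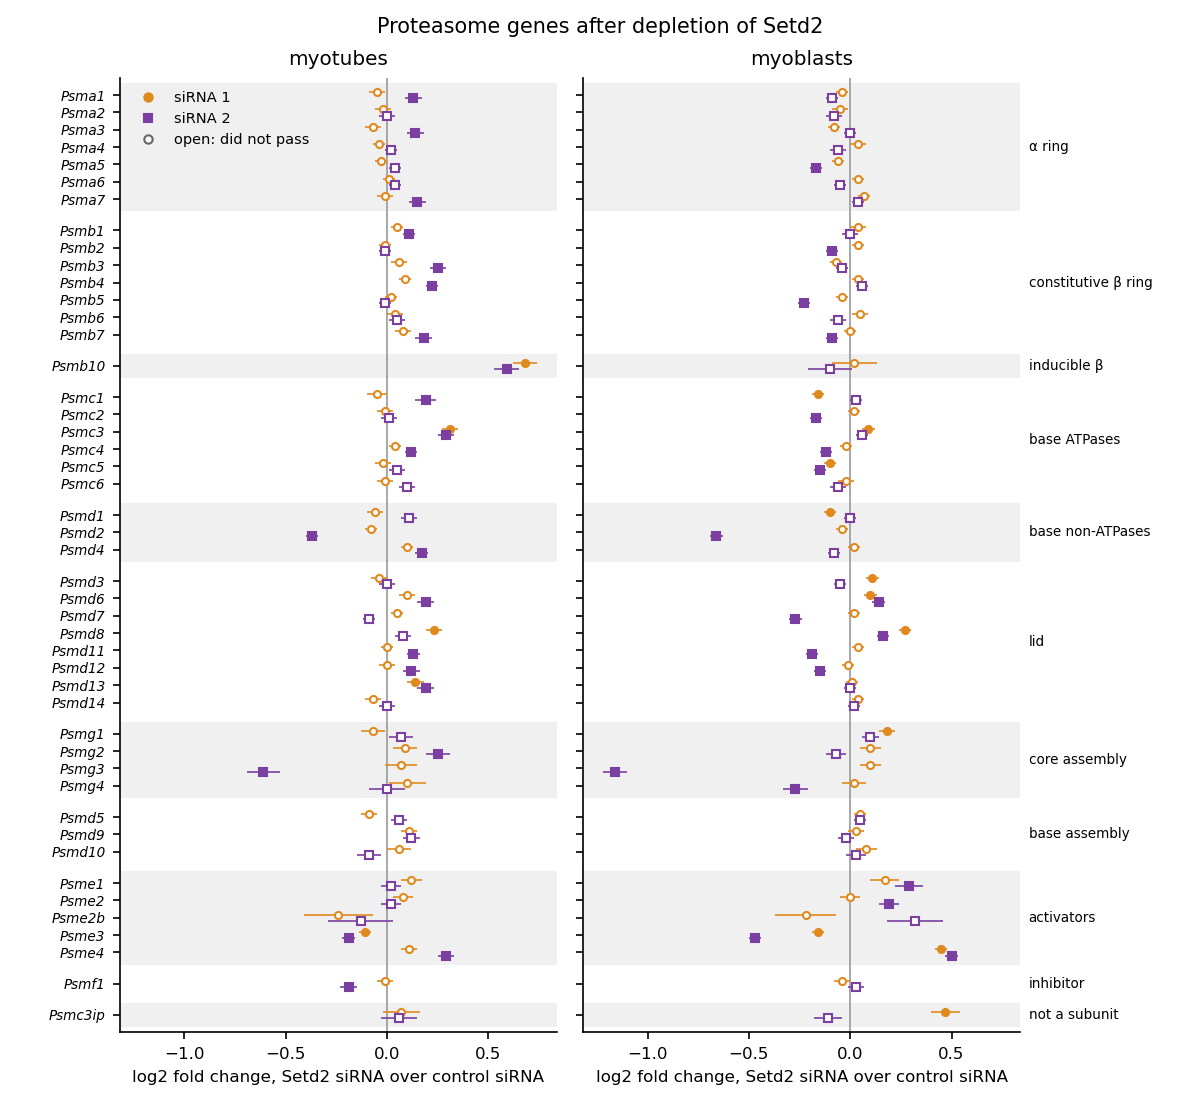
Log2 fold change of each Setd2 siRNA over the control siRNA (x axis) for the 46 tested proteasome genes in myotubes and in myoblasts. Points are estimates from 3 libraries per group with standard errors, filled where the adjusted p was under 0.05. Psmb10 stands at 0.68 and 0.59 in myotubes and near 0 in myoblasts, and Psmg3 and Psmd2 lie far to the left with siRNA 2 in both stages.

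In myoblasts with siRNA 1, 7 of the 46 genes rose, Psmc3ip among them, and 4 fell, 23.9% called, where 20.0% of 15586 genes were called, 11.6% rising and 8.44% falling. With siRNA 2, 5 rose and 14 fell, 41.3% called, where 33.5% of all genes were called, 17.1% rising and 16.5% falling. The medians were 0.02 and -0.05 over the proteasome genes and 0.01 and 0.00 over all genes. On TPM the splits were 4 rises and 9 falls with siRNA 1 and 3 rises and 16 falls with siRNA 2, on a scale where the median over all genes was -0.06 and -0.04 and that over the proteasome genes -0.05 and -0.09. The 31 structural subunits summed to 7629.6 ± 60.6 TPM in siRNA 1 myoblasts and 7385 ± 224 TPM in siRNA 2 myoblasts, against 7975 ± 129 TPM in control myoblasts. In CPM the same sums were 5151 to 5233 in siRNA 1 myoblasts and 4774 to 4943 in siRNA 2 myoblasts, against 5136 to 5271 in control myoblasts, so that the siRNA 1 range lay within that of the controls. Marker sums moved too: the myotube markers were at 200.3 to 274 CPM with siRNA 1 and 353 to 433 CPM with siRNA 2, against 173 to 213 CPM with control siRNA. The fibroblast markers were at 1197 to 1446 CPM with siRNA 1 and 1489 to 1802 CPM with siRNA 2, against 1035 to 1294 CPM with control siRNA, and the myoblast markers at 1535 to 1607 CPM with siRNA 1 and 1675 to 1788 CPM with siRNA 2, against 1182 to 1372 CPM with control siRNA. All 3 sums lay above every control library with siRNA 2, and the part of these markers and of the ribosomal RNA-like share in the changes was not tested.

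Called the same way with each siRNA in myoblasts were 3 rises, Psme4, Psmd8 and Psmd6, and 2 falls, Psme3 and Psmc5, where 11.9% of all genes were so called, 7.69% rising and 4.25% falling. On TPM the split was 2 and 5. Psme4, the activator, had 220.0, 219 and 213 CPM in siRNA 1 myoblasts and 235, 218 and 225 CPM in siRNA 2 myoblasts, against 156, 161 and 162 CPM in control myoblasts. The log2 fold change was 0.45 with siRNA 1 (SE 0.03, adjusted p = 2.13e-06) and 0.50 with siRNA 2 (SE 0.03, adjusted p = 2.81e-07). All 6 depleted libraries lay above all 3 controls, and within the prefixes C14 and D2 the log2 differences were 0.49 and 0.40 with siRNA 1 and 0.58 and 0.45 with siRNA 2. Psme3, the nuclear activator, had 158, 156 and 165 CPM in siRNA 1 myoblasts and 125, 134 and 127 CPM in siRNA 2 myoblasts, against 176, 182 and 180.4 CPM in control myoblasts. The log2 fold change was -0.16 with siRNA 1 (SE 0.03, adjusted p = 0.00328) and -0.47 with siRNA 2 (SE 0.03, adjusted p = 3.76e-07), and the fall with siRNA 2 was larger by -0.31 in the direct comparison (adjusted p = 2.24e-05).

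Psmd8, a lid subunit, had 199.6, 201 and 206 CPM in siRNA 1 myoblasts and 189.9, 187 and 187 CPM in siRNA 2 myoblasts, against 171, 167 and 167 CPM in control myoblasts (log2 fold changes 0.27 and 0.16). Psmd6, also of the lid, had 105, 104 and 104 CPM in siRNA 1 myoblasts and 109.8, 109 and 103 CPM in siRNA 2 myoblasts, against 99.1, 97.1 and 97.1 CPM in control myoblasts (0.10 and 0.14). Psmc5, an ATPase of the base, had 134, 131 and 136 CPM in siRNA 1 myoblasts and 132, 130.2 and 126 CPM in siRNA 2 myoblasts, against 143, 142 and 145 CPM in control myoblasts (-0.10 and -0.15). In none of the 3 genes did depleted and control libraries overlap. Yet the siRNA 1 calls of Psmd6 (adjusted p = 0.0340) and Psmc5 (adjusted p = 0.0268) by edgeR were lost in 8 and 4 of 18 alternatives. The fit of all 18 libraries was among these for both genes.

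The falls furthest from 0 with siRNA 2 in myoblasts were those of Psmg3 and Psmd2, which also fell with it in myotubes. Psmg3 had 15.4, 14.9 and 14.7 CPM in siRNA 1 myoblasts and 6.33, 6.46 and 6.05 CPM in siRNA 2 myoblasts, against 14.4, 14 and 13.8 CPM in control myoblasts. With siRNA 2 it stood at 0.447 of the control level (log2 fold change -1.16, SE 0.06, adjusted p = 2.70e-08), and with siRNA 1 it did not pass (0.10, SE 0.05, adjusted p = 0.244). Psmd2 had 493, 493 and 510.2 CPM in siRNA 1 myoblasts and 318, 335 and 319 CPM in siRNA 2 myoblasts, against 516, 511 and 517 CPM in control myoblasts, a log2 fold change of -0.04 with siRNA 1 (SE 0.03, adjusted p = 0.338) and -0.66 with siRNA 2 (SE 0.03, adjusted p = 1.27e-08). Set against siRNA 1 directly, siRNA 2 myoblasts were lower by -1.26 for Psmg3 (SE 0.06, adjusted p = 3.33e-08) and -0.62 for Psmd2 (SE 0.03, adjusted p = 2.91e-08). The Setd2 level was 39.2 ± 4.11 CPM in siRNA 1 myoblasts and 42.8 ± 3.03 CPM in siRNA 2 myoblasts.

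Of the catalytic subunits in myoblasts, Psmb5 had 87.9, 87.2 and 89.4 CPM with siRNA 1 and 75.6, 76.4 and 79.6 CPM with siRNA 2, against 93.4, 89.1 and 90.8 CPM with control siRNA, and fell with siRNA 2 (-0.23, SE 0.03, adjusted p = 0.000108). Psmb7 had 145, 148 and 145 CPM with siRNA 1 and 141, 136 and 135 CPM with siRNA 2, against 147, 147 and 146 CPM with control siRNA, and fell with siRNA 2 (-0.09). Psmb6 had 126 to 131 CPM with siRNA 1 and 114 to 124 CPM with siRNA 2, against 119 to 131 CPM with control siRNA, and passed with neither. Psmb10 had 5.24, 5.04 and 5.12 CPM with siRNA 1 and 3.91, 5.17 and 5.09 CPM with siRNA 2, against 5.24, 4.77 and 5.17 CPM with control siRNA, so its groups overlapped (log2 fold changes 0.02 and -0.10). Across the comparison of siRNA 2 with siRNA 1 in myoblasts 4 proteasome genes were higher and 18 lower, Psmc3ip among the lower ones, where 26.3% of all genes differed, 12.1% higher and 14.3% lower.

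Of the remaining activators and the inhibitor in myoblasts, Psme1 had 26.6, 26.6 and 25.2 CPM with siRNA 1 and 31.1, 26.7 and 27.4 CPM with siRNA 2, against 25.3, 22.4 and 22.1 CPM with control siRNA, and rose with siRNA 2 (0.29). Psme2 had 25.0, 24.9 and 25.3 CPM with siRNA 1 and 29.1, 28.7 and 27.8 CPM with siRNA 2, against 26.4, 25.1 and 23.6 CPM with control siRNA, and rose with siRNA 2 (0.19). Psmf1 had 31.4 to 35.3 CPM with siRNA 1 and 34.0 to 35.0 CPM with siRNA 2, against 33.1 to 34.2 CPM with control siRNA, and passed with neither. Psmc3ip rose with siRNA 1 (0.47, SE 0.07, adjusted p = 0.000594), and siRNA 2 stood lower than siRNA 1 by -0.58 (adjusted p = 9.26e-05).

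**Figure D4:**
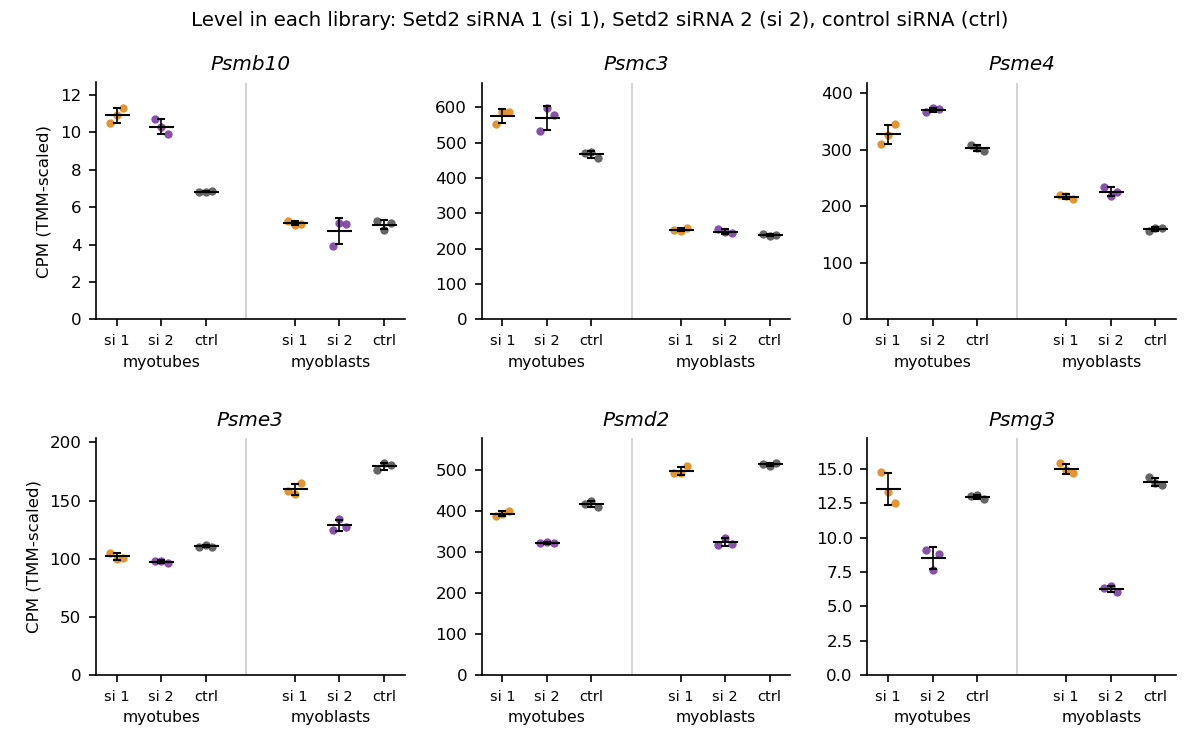
CPM in each library (y axis, from 0) for 6 proteasome genes in myotubes and myoblasts with Setd2 siRNA 1, Setd2 siRNA 2 and control siRNA. Points are libraries, and the black marks are the mean and SD of 3. Every depleted library stands above every control library for Psmb10 in myotubes and for Psmc3 and Psme4 in each stage. Psmd2 and Psmg3 are low in every siRNA 2 library.

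Whether depletion acted differently in the 2 stages was tested as an interaction in the fit of all 18 libraries: the average effect of the siRNAs in myotubes, less their average effect in myoblasts. Of the 46 proteasome genes 15 were called with a positive difference and 1 with a negative one, 34.8% called. Of all 16930 genes 23.4% were called, 10.6% positive and 12.8% negative. Called or not, the difference was above 0 in 34 of the 46, a share that was not counted over all genes. The median difference was 0.08 over the proteasome genes and -0.00 over all genes, and on TPM the split was 11 and 2. Psmb10 had the largest difference, 0.67 (SE 0.10, adjusted p = 9.36e-05), and Psme4 the only negative one called, -0.27 (SE 0.04, adjusted p = 0.000181). Psmg3 (0.26), Psmc3 (0.22), Psmb3 (0.21) and Psmb7 (0.18) followed. The stage difference was not tested with each siRNA apart. Against control, Psmg3 and Psmb7 had passed with siRNA 2 alone in each stage, and Psmb3 only with siRNA 2 in myotubes. For Psmb3 the levels behind the difference were 106 to 111 CPM in siRNA 1 myotubes and 119.6 to 129.8 CPM in siRNA 2 myotubes against 102 to 108 CPM in control myotubes, and 101 to 107 CPM in siRNA 1 myoblasts and 106 to 107 CPM in siRNA 2 myoblasts against 106 to 113 CPM in control myoblasts. The Psmg3 difference missed the threshold in 9 of the fits that left out 1 library, with adjusted p from 0.0507 to 0.0677. All 16 genes are listed in the closing section.

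By role, positive differences were called in 3 of 7 genes of the beta ring, 3 of 6 ATPases, 2 of 3 other base subunits and 4 of 8 lid genes. In the alpha ring 0 of 7 were called, with values from 0.00 to 0.12. Whether these classes differ from each other was not tested.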

How the data were processed

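PolyA RNA of 18 C2C12 libraries was sequenced, 3 in each of 6 groups. The authors deposited, per the file headers, 1 table per stage with an estimated count and a TPM value for each of 115088 transcripts and each library, and the submitters' processing notes name mm10 and DESeq2 with no role. No label or header names the quantifier or the strandedness. TPM values, as the authors deposited them, are scaled within each library and corrected for transcript length.

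Columns were tied to samples through the labels. For siRNA 2, the name of myoblast column 3 reads SETD3 where the label reads SETD2, and that of the third control myotube library carries another control number. No other column of values was left over (0). Estimated counts were summed over transcripts to genes with GENCODE mouse release M21, which matched 114200 transcripts; the 888 others took 0.16% to 0.24% of the counts. Sums were rounded to whole numbers, filtered with filterByExpr at a minimum count of 10, scaled by TMM and tested with the quasi-likelihood test of edgeR 4.0.16 in R 4.3.3, with Benjamini-Hochberg adjustment over all genes tested. Depletion was tested within each stage (9 libraries, 6 residual degrees of freedom). Differentiation and the difference between stages were tested in 1 fit of 18 libraries (12 residual degrees of freedom). CPM values come from TMM scaling over the 18 libraries, whose factors differed from those of the stage fits by at most 0.0291 on the log2 scale. The tests were tested on simulated data with known changes.

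Alternatives were RLE scaling, DESeq2 1.42.0, limma 3.58.1 on log2(TPM + 1) for genes of at least 1 TPM in 3 libraries, no filter, protein-coding transcripts only, a replicate block, the library prefix as a term, all 18 libraries in 1 fit, and leaving out each library. Summing the libraries of 1 prefix was added after the data were seen. Column prefixes are C13 and D1 in myotubes and C14 and D2 in myoblasts, and their meaning is not given. Some same-prefix libraries of a group lay close together, by the chi-square of their counts over its degrees of freedom. It was 2.57 for control myoblasts 2 and 3, 2.5 for siRNA 1 myoblasts 1 and 2, and 3.05 for siRNA 2 myotubes 2 and 3. The other pairs, some also of 1 prefix, gave 9.55 to 55.8. The tests count close libraries as separate replicates. Replicate numbers were not used to pair the libraries. Of 18 correlations of deviations between same-numbered libraries within a stage, 5 were above 0.1, with a range of -0.116 to 0.247. All 5 were between myoblast libraries that also share a prefix. Prefixes are spread unevenly over the groups, and the main fits hold no prefix term.

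The members and lists were chosen with earlier results of these data known. All tested members enter the counts and medians, but not every member called is named for each comparison. Those given in full are the members called with each siRNA in a stage, those with the largest changes, and the catalytic subunits, activators and inhibitor. Psmd2 was chosen after its values were seen. Promoter windows are from RefSeq, build GRCm38.p6.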

Additional observations from a re-analysis of the deposited data

Results flagged for a closer look

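The effect of Setd2 depletion, averaged over the siRNAs, differed between the stages in 16 proteasome genes. The test was the interaction in edgeR's quasi-likelihood fit with Benjamini-Hochberg adjustment. The stage difference was not tested with each siRNA apart. Values are the log2 effect in myotubes minus that in myoblasts. The inducible catalytic subunit Psmb10 had 0.67 and the activator Psme4 -0.27. The chaperone Psmg3 had 0.26, the ATPase Psmc3 0.22, and the beta subunits Psmb3, Psmb7 and Psmb5 had 0.21, 0.18 and 0.15. The activator Psme3, the ubiquitin receptor Psmd4 and the lid subunit Psmd13 each had 0.17. The ATPases Psmc4 and Psmc5 had 0.15 and 0.14. The lid subunits Psmd12, Psmd11 and Psmd7 had 0.15, 0.14 and 0.11, and the base scaffold Psmd2 had 0.13. Against control, Psmg3, Psmd2, Psmb7, Psmc4, Psmd11 and Psmd12 passed with siRNA 2 alone in each stage. Psmb3 and Psmd4 passed only with siRNA 2 in myotubes, and Psmb5 and Psmd7 only with siRNA 2 in myoblasts. Of 26 alternatives, the call was lost in 11 for Psmd7, in 9 for Psmg3, in 6 for Psmd12, in 3 for Psmc5 and in 1 each for Psmd13 and Psme3, and in none for the other 10 genes.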

How the results depend on the processing

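Of 98 counts of called proteasome genes under alternatives that kept every library, 89 lay within 1.5 times the reported count. The exceptions follow. On TPM, siRNA 1 in myotubes gave 9 calls, siRNA 2 in myotubes 14, and siRNA 2 against siRNA 1 in myotubes 10. With same-prefix libraries summed, these gave 3 for siRNA 1 in myotubes, 7 for siRNA 2 against siRNA 1 in myotubes, and 2 for genes called with each siRNA in myotubes. The fit of all 18 libraries gave 7 for siRNA 1 in myoblasts and 3 for genes called with each siRNA in myoblasts, and the prefix term gave 9 for the last. With 1 library left out, calls ran from 5 to 12 for siRNA 1 and 16 to 24 for siRNA 2 in myoblasts, from 3 to 8 and 16 to 25 in myotubes, from 15 to 24 and 8 to 21 for siRNA 2 against siRNA 1 in myoblasts and myotubes, from 3 to 5 and 2 to 7 for each siRNA in myoblasts and myotubes, from 32 to 38 over the differentiation comparisons and from 13 to 17 for the stage difference. The count for siRNA 1 in myoblasts fell to 5 without siRNA 1 library 1, to 6 without control library 3, and to 7 without control library 2 or siRNA 1 library 2. In myotubes it fell to 3 without any 1 control library, or siRNA 1 library 2 or 3, and was 8 without siRNA 2 library 1. With the replicate block it was 13 in myoblasts and 5 in myotubes, and no count moved by over 1.5 times. Of 221 gene calls 155 were kept under every alternative. Psma3 reversed to -0.03 with siRNA 2 in myotubes on protein-coding transcripts (adjusted p = 0.868, against 0.14 as reported). The prefix term was not run for differentiation, since prefix lies within stage. The causes were not tested.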
